A study of Mus musculus with 5 samples.

Results

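The nicotinic acetylcholine receptor subunits of neurons were measured in the dLGN (dorsal lateral geniculate nucleus), which relays signals of the retina to the visual cortex, in newborn mice. The genes were the alpha subunits Chrna2, Chrna3, Chrna4, Chrna5, Chrna6 and Chrna7 and the beta subunits Chrnb2, Chrnb3 and Chrnb4. They were taken by gene symbol from the platform annotation, and all 9 of them, of 18193 genes with a probe set of their own, were on the array. A probe set is a group of short probes that read the same transcript, and the 9 genes had 19 of the 45037 that were tested. The knockout group lacked Sema6A function on both copies (labelled Sema6A KO, Sema6A-/-), with 2 arrays, and the control group was heterozygous for the same mutation (labelled Sema6A HET), with 3 arrays. All mice were at postnatal day 0 on a C57BL/6 background, and the controls therefore carried 1 mutant copy as well. Per the series description, every array was hybridised with RNA from a pool of pups of 1 genotype from different litters. Where in Sema6a the mutation lies is not given in the labels. Sema6a encodes a transmembrane semaphorin that guides axons and migrating cells.

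Neuronal nicotinic receptors are ion channels built from a ring of subunits around a cation pore, and they open when acetylcholine, or nicotine, binds between subunits. Chrna4 and Chrnb2 together make the main high-affinity nicotine receptor of the brain, which is abundant in thalamic relay neurons, and Chrna7 forms a fast, calcium-permeable channel of identical subunits. In the developing visual system, receptors with Chrnb2 in the retina carry the spontaneous waves of activity that refine retinal projections to the dLGN. Chrna3 and Chrnb4 are best known from autonomic ganglia and the medial habenula, and Chrna6 and Chrnb3 from dopamine neurons and retinal ganglion cells.

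In the arrays as a whole, the targeted gene matched the labels. At the brightest Sema6a probe set the knockout read 7.81 and 7.85 on the log2 scale, against 10.39 to 10.65 in the controls. All 12 listed thalamic relay neuron markers read at or above the median level of all probe sets, which was 6.39. This level does not tell tissues apart, since 6 of 6 measured oligodendrocyte lineage genes and 11 of 15 microglial markers also reached it. Knockout replicate 1 stood apart in more than 1 respect. Slc6a4, 1 of these relay neuron markers, read 7.98 in it and 10.60 in knockout replicate 2, against 10.60 to 10.85 in the controls. The mean of all 12, given below, did not set this array apart. The mean level of 18 GABAergic and prethalamic markers, of which 8 read below the median level, was 8.29 in knockout replicate 1 and 6.24 in knockout replicate 2, against 5.88 to 6.33 in the controls. The 3′ minus 5′ difference of the Gapdh control probe sets, a measure of RNA integrity and of amplification, was 2.34 in knockout replicate 1 and 0.96 in knockout replicate 2, against 0.77 to 1.33 in the controls. In both knockout arrays the mean level of 15 microglial markers was higher, at 8.49 and 8.33, against 6.58 to 6.70 in the controls. The mean marker level was 7.85 and 8.03 in the knockout arrays and 7.50 to 7.98 in the controls for 7 endothelial genes, 10.73 and 10.52 against 10.19 to 10.81 for 7 genes of radial glia and astrocytes, 10.02 and 10.21 against 9.52 to 9.55 for 6 genes of the oligodendrocyte lineage, and 11.01 and 11.65 against 10.92 to 11.19 for the relay neuron genes.

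No nicotinic subunit passed the test between Sema6a knockout and control dLGN. Of their 19 probe sets, 0 had an adjusted p under 0.05 in limma and 0 had an unadjusted p under 0.05, where 0.0733% and 11.1% of all 45037 probe sets did. The adjusted p-values lay between 0.506 and 0.981. The log2 fold changes, knockout minus control, ran from -0.55 at Chrna4 to 0.28 at Chrna5, with a median of -0.040, against -0.0071 over all probe sets. The mean was lower in the knockout at 11 probe sets and higher at 8, and 51.5% of all probe sets were lower. Both knockout arrays lay on one side of all controls at 3 probe sets, those of Chrna2, Chrna3 and Chrnb2, where 27.3% of all probe sets did so. With any 1 of the 5 arrays left out, the adjusted threshold of limma was still passed by 0 of the 19, and 0 to 2 of them had an unadjusted p under 0.05, where 8.2% to 18.6% of all probe sets did. In bulk tissue, fewer cells of a type and less RNA per cell cannot be told apart, so a level here is that of the whole dissected nucleus.

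**Figure D1:**
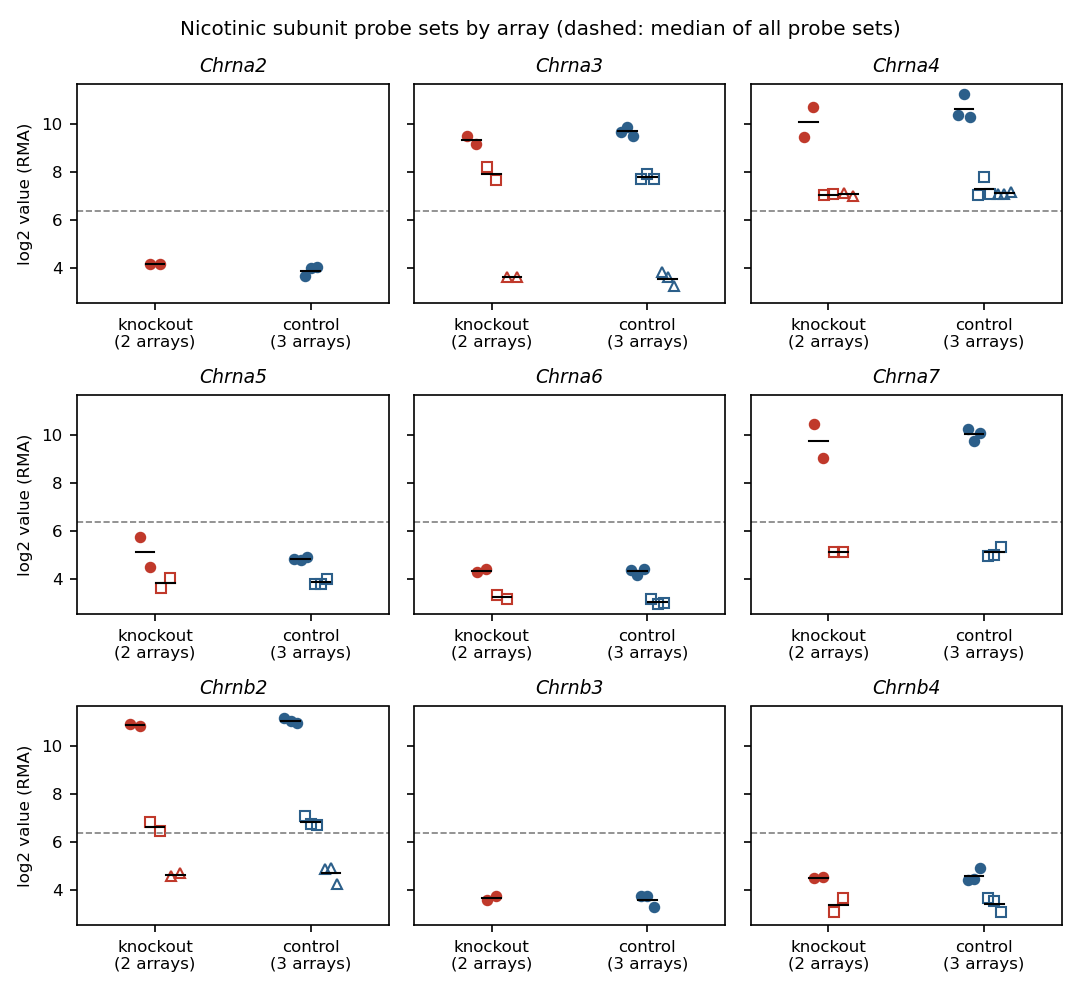
Log2 RMA values of all 19 nicotinic subunit probe sets, with 1 panel for each gene, knockout arrays (2, red) left of control arrays (3, blue), a different symbol for each probe set, filled for the brightest, and a short line at the group mean. The dashed line is the median of all probe sets, 6.39. Chrna3, Chrna4, Chrna7 and Chrnb2 have probe sets above it and the other genes have none.

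The subunits fell into those read above the median level of the array and those read below it. Chrna3, Chrna4, Chrna7 and Chrnb2 had 8 probe sets whose mean over the 5 arrays reached the median level. The other 11 probe sets, which include all those of Chrna2, Chrna5, Chrna6, Chrnb3 and Chrnb4, had means between 3.14 and 5.13. Because probes differ in how well they hybridise, a level below the median does not show that a transcript is missing, so no ranking of the subunits was read from these levels. Probe sets of the same gene differed widely in level, so that Chrna7 and Chrnb2 each had a bright probe set and a dim one. The dim Chrna7 probe set and the dim Chrnb2 one were designed from RefSeq messenger RNA records and the bright ones from other records. In the RefSeq gene order Chrna5, Chrna3 and Chrnb4 are neighbours on chromosome 9, and Chrnb3 and Chrna6 are neighbours on chromosome 8.

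The starts of the 4 genes read above the median level are shown because these are the subunits whose levels the arrays could follow. The sequences are from RefSeq on GRCm38.p6 and hold 200 bases before and 5 after the annotated start, 5′ to 3′ on the minus strand, at chr9:55026558-55026762 for Chrna3, chr2:181039173-181039377 for Chrna4, chr7:63212522-63212726 for Chrna7 and chr3:89764628-89764832 for Chrnb2. Capitals mark the GC box GGGCGG, the letters GCGNGGGCG of the Egr family and the E-box CACGTG, searched on both strands.
Chrna3: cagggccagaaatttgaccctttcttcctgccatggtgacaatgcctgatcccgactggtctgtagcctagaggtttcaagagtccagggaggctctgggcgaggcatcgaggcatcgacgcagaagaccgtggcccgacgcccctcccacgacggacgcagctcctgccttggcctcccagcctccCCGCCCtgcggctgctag
Chrna4: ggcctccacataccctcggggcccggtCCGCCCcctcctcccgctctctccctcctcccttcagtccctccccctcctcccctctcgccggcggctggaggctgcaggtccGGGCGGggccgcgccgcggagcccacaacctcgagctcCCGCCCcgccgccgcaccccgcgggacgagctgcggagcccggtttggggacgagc
Chrna7: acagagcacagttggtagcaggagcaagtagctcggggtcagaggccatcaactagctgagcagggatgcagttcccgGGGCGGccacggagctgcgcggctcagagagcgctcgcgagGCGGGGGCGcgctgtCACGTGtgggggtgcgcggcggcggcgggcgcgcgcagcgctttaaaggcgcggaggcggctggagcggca
Chrnb2: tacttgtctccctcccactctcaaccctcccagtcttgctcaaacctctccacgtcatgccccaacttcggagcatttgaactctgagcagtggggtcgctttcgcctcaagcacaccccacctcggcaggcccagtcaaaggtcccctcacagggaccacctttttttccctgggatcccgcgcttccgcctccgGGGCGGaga
Over the full RefSeq window of 300 bases a GC box stood 3 times at Chrna4 and 1 time each at Chrna3, Chrna7 and Chrnb2, and 35.7% of 32851 such windows held it. Only Chrna7 among these 4 held the Egr letters, 81 bases before the start, and the E-box, 66 bases before it, which 5.55% and 7.15% of windows held. No GC box match overlapped the Egr or E-box match there. CpG dinucleotides numbered 35 at Chrna7, 33 at Chrna4, 18 at Chrna3 and 12 at Chrnb2, against a median of 7 over all windows. Of the genes read below the median level, Chrnb4 and 1 of the Chrna5 starts held none of the 3 motifs, and the other Chrna5 start held 4 GC boxes. No window was available for Chrna2, Chrna6 and Chrnb3, so their starts were not searched.

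Chrnb2, the beta subunit that joins Chrna4 in most brain receptors, had the narrowest limits among the brightest probe sets. That probe set (1436428_at) read 10.95 and 10.84 in the knockout arrays, against 11.20, 11.06 and 10.98 in the control arrays. Both knockout arrays were lower than every control, by a margin smaller than the range of the controls. The log2 fold change was -0.18 ± 0.12 (SE), with a 95% interval from -0.48 to 0.12 (limma adjusted p = 0.627). A halving or a doubling, which would be 1 unit on this scale, lay outside the interval. The other probe set above the median level (1441837_at) gave -0.22, with 6.83 and 6.45 in the knockout and 6.70 to 7.12 in the controls, and the dim one (1420744_at) gave -0.056. In the knockout all 3 probe sets of the gene had the lower mean, but only the brightest had groups that did not overlap.

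Chrna3, an alpha subunit of ganglionic and habenular receptors, had the lowest p of the 19 probe sets. Its brightest probe set (1455931_at) read 9.52 and 9.17 in the knockout arrays, against 9.69, 9.91 and 9.54 in the control arrays. Knockout replicate 1 lay close below control replicate 3, and knockout replicate 2 lay further down. The log2 fold change was -0.37 ± 0.17 (SE), with a 95% interval from -0.79 to 0.057 (limma adjusted p = 0.506). The next probe set (1452010_at) went the other way, at 0.15, with 8.21 and 7.68 in the knockout and 7.72 to 7.92 in the controls. Its knockout arrays lay on either side of the controls, so the probe sets of Chrna3 did not give a common direction. The dimmest probe set (1444368_at) read 3.62 in both knockout arrays, against 3.83, 3.62 and 3.25 in the controls, and gave 0.056. Without knockout replicate 1 the brightest probe set gave -0.54, and without knockout replicate 2 it gave -0.20. Over 9 listed habenular markers the mean level was 6.89 and 6.96 in the knockout arrays, against 6.81 to 7.08 in the controls. Of these markers, 5 reached the median level in their mean over the arrays, Tac1 among them at 8.79. Pou4f1, Tac2, Gpr151 and Htr5b did not, and Tac2 and Gpr151, which mark the medial habenula, read below it in each array. Of all 9 markers 1 was higher (Irx2) and 2 were lower (Pou4f1 and Kcnip1) at an unadjusted p under 0.05 in limma, where 11.8% of all genes passed in either direction. None of the 9 passed the adjusted threshold, and their median log2 fold change was -0.0041. The part of habenular cells in the Chrna3 values was not tested.

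Chrna4, the alpha subunit of the main brain receptor, had the largest difference in means of the 19 probe sets and also the widest spread. Its brightest probe set (1421203_at) read 9.49 and 10.72 in the knockout arrays, against 10.40, 11.25 and 10.30 in the control arrays. Knockout replicate 1 was the lowest of the 5, and knockout replicate 2 was higher than 2 of the 3 controls. The 2 knockout arrays averaged 10.10 ± 0.87 and the 3 control arrays 10.65 ± 0.52 (SD). The log2 fold change was -0.55 ± 0.45 (SE), with a 95% interval from -1.69 to 0.59 (limma adjusted p = 0.695). It was -1.17 without knockout replicate 2 and 0.065 without knockout replicate 1, so the direction rested on knockout replicate 1. Without control replicate 2 it was -0.25. The 5 arrays ran in exactly the reverse order of the Gapdh 3′ minus 5′ difference, from knockout replicate 1 (2.34) through control replicates 3 (1.33) and 1 (1.24) and knockout replicate 2 (0.96) to control replicate 2 (0.77). This order, noticed after the values were seen, held in 1.79% of the 22519 probe sets at or above the median level, and at no other nicotinic probe set. The Actb difference, the other such measure, was 1.91 and 0.97 in the knockout arrays, against 1.45, 0.62 and 1.01 in the controls, and it did not give the same order, since control replicate 1 lay above control replicate 3. The part of RNA integrity in the Chrna4 values was not tested. The other probe sets of the gene (1421202_at and 1456354_at) gave -0.24 and -0.040. The first of these read 7.04 and 7.11 in the knockout arrays and 7.05, 7.81 and 7.09 in the controls, where control replicate 2 alone stood high, as it did at the brightest probe set.

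Chrna7, which forms the calcium-permeable channel, differed more between the knockout arrays than between the groups. Its brightest probe set (1440681_at) read 10.49 and 9.05 in the knockout arrays, against 10.26, 9.78 and 10.09 in the control arrays. The knockout arrays were the highest and the lowest of the 5. The 2 knockout arrays averaged 9.77 ± 1.02 and the 3 control arrays 10.04 ± 0.24 (SD), a log2 fold change of -0.27 with a 95% interval from -1.35 to 0.80 (limma adjusted p = 0.848). It was 0.45 without knockout replicate 2 and -0.99 without knockout replicate 1. The gap between the knockout arrays was 1.45, and 1.13% of probe sets at or above the median level had one as large. For Chrna4 the gap was 1.23 in the opposite direction, and 2.02% had one as large. The dim probe set of Chrna7 (1450299_at) gave 0.015 and read 5.13 in each of the knockout arrays. The GABAergic and prethalamic marker level was 8.29 in knockout replicate 1 and 6.24 in knockout replicate 2, against 5.88 to 6.33 in the controls. Of the 2 knockout arrays, knockout replicate 1 had the higher Chrna7 and the lower Chrna4. Knockout replicate 2, with a marker level within the controls, read 9.05 at Chrna7, below the lowest control at 9.78. The part of those cells in either gap was not tested.

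**Figure D2:**
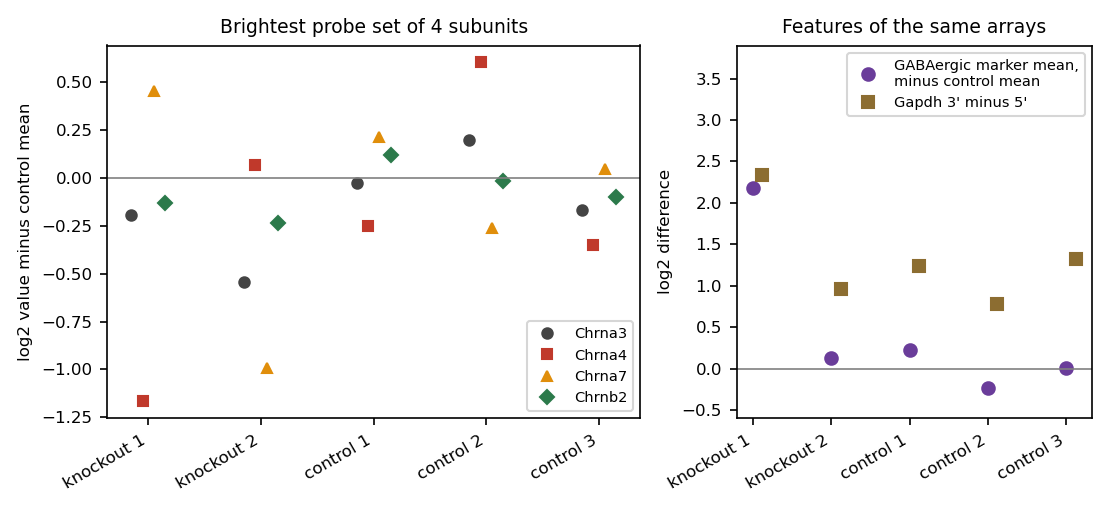
Left, the log2 value of the brightest probe set of Chrna3, Chrna4, Chrna7 and Chrnb2 in each array minus the mean of the 3 controls. Chrna4 is lowest in knockout replicate 1 and Chrna7 lowest in knockout replicate 2. Right, for the same arrays, the mean log2 level of 18 GABAergic and prethalamic markers minus its control mean, and the 3′ minus 5′ log2 difference of the Gapdh control probe sets, both highest in knockout replicate 1.

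The subunits read below the median level gave no call either. Chrna2, a subunit of restricted sets of interneurons, read 4.17 in both knockout arrays, against 3.66, 4.00 and 4.06 in the control arrays. The log2 fold change was 0.26 with a 95% interval from -0.13 to 0.65 (limma adjusted p = 0.596). The equal knockout values narrow its spread, and it was 0.14 without control replicate 1. Of the 11 dim nicotinic probe sets, 6 held equal values in a pair of arrays or more, as did 24.3% of all probe sets below the median level. Chrna5, an accessory subunit that joins other alpha and beta subunits, read 5.75 and 4.52 in the knockout arrays at its brightest probe set (1442035_at), against 4.84, 4.79 and 4.93 in the controls. Knockout replicate 1 alone stood above the controls and knockout replicate 2 lay below them. The log2 fold change of 0.28 (95% interval from -0.61 to 1.17, limma adjusted p = 0.806) was -0.34 without knockout replicate 1 and 0.90 without knockout replicate 2. The other Chrna5 probe set (1427401_at) gave -0.036, with the knockout arrays in the opposite order, at 3.65 and 4.04.

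Chrna6 and Chrnb3, which pair in receptors on dopamine neurons and retinal axons, read below the median level in every array. The brightest Chrna6 probe set (1450426_at) read 4.30 and 4.42 in the knockout arrays, against 4.40, 4.20 and 4.42 in the controls, a log2 fold change of 0.019 (limma adjusted p = 0.970). The knockout values lay inside the range of the controls or at its upper end. The other Chrna6 probe set (1450427_at) read 3.33 and 3.20 in the knockout arrays, against 3.20, 2.97 and 3.03 in the controls, and gave 0.20 (limma adjusted p = 0.616). The single Chrnb3 probe set (1451842_a_at) read 3.60 and 3.74 in the knockout arrays and 3.75, 3.76 and 3.32 in the controls, a log2 fold change of 0.062 (limma adjusted p = 0.921). Chrnb4, the beta partner of Chrna3 in ganglia and habenula, read 4.51 and 4.55 in the knockout arrays at its brightest probe set (1425849_at), against 4.44, 4.46 and 4.93 in the controls. Its log2 fold change was -0.083 with a 95% interval from -0.54 to 0.37 (limma adjusted p = 0.896). The other Chrnb4 probe set (1457008_at) gave -0.065, with knockout values of 3.08 and 3.67 that matched the lowest and highest controls. For these 3 genes the groups overlapped or met at every probe set. At 1450427_at they only met, since knockout replicate 2 and control replicate 1 both read 3.20.

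**Figure D3:**
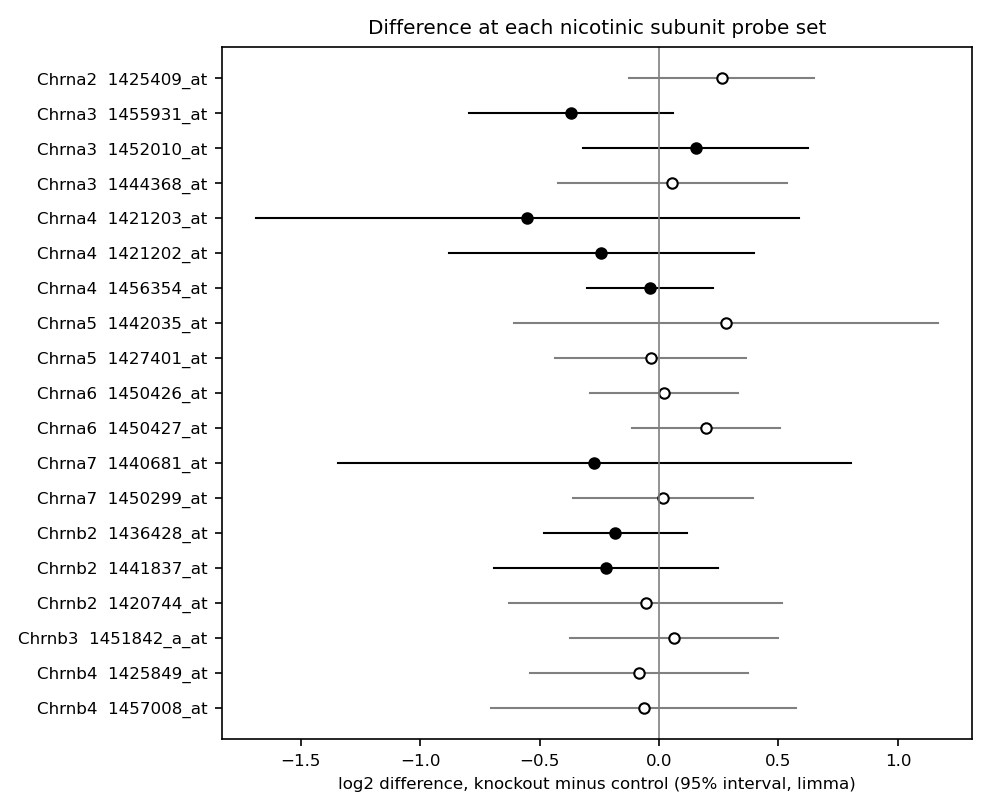
Log2 difference, knockout minus control, with its 95% interval from limma for each of the 19 probe sets, named by gene and probe set. Filled points are the 8 probe sets whose mean over the arrays reached the median level, open points the other 11. Each interval includes 0, the widest is that of the brightest Chrna4 probe set, from -1.69 to 0.59, and the narrowest that of its probe set 1456354_at, from -0.30 to 0.22.

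The patterns over the 5 arrays were set against those of other genes for Chrna4 and Chrna3, the subunits with the largest differences among those above the median level. Likeness was the root mean square difference between log2 values centred on the mean of each gene, over 5 arrays and 11746 other genes above the median level. Values were not scaled, so the measure follows the size of a gene's spread as well as its pattern. For Chrna4 the closest were Iglon5 (0.142), Lrrc4b (0.151), Smn1 (0.160), Pex11g (0.165) and Erf (0.171), against a median of 0.611 over those genes. Iglon5, for example, read 10.10 and 11.06 in the knockout arrays and 10.78, 11.47 and 10.83 in the controls. For Chrna3 the closest were Itga4 (0.0674), Galntl6 (0.0684), Ooep (0.0717), Efna5 (0.0726) and 5530601H04Rik (0.0772), against a median of 0.287. Of the nicotinic subunits themselves, Chrna3 and Chrnb2 were the closest pair above the median level (0.168), and Chrna4 and Chrna7 the farthest apart (0.979). With 5 arrays these values only describe the arrays at hand.

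Around the receptor, the 1 gene that passed the test was Lypd1, which encodes a membrane-anchored relative of snake toxins that binds nicotinic receptors and dampens them. Its brightest probe set read 10.89 and 10.55 in the knockout arrays, against 8.16, 7.62 and 8.06 in the control arrays. This was a 6.84-fold difference, or 2.77 ± 0.21 on the log2 scale (SE, limma adjusted p = 0.0392), and the other probe set gave 3.20 (limma adjusted p = 0.115). Both knockout arrays were far above all controls, while the subunits themselves gave no call. The mean microglial marker level was also higher in both knockout arrays, as given above, and its part in the Lypd1 values was not tested. Its annotated span overlaps that of Gpr39, and whether the probe sets read Lypd1 alone was not tested. Lypd1 lost its call with any 1 array left out, as did every other probe set in the series.

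The 16 measured genes of receptor assembly, trafficking and modulation had 1 member higher and 0 lower at an adjusted p of 0.05 in limma, where 0.0879% of genes passed on the higher side at their brightest probe set. At an unadjusted p under 0.05 there were 3 higher and 0 lower, where 11.8% of genes passed in either direction and 6.9% on the higher side. The median log2 fold change of the group was 0.040, against 0.0085 over all genes. Lynx1, another toxin-like brake on nicotinic receptors, read 8.75 and 8.27 in the knockout arrays, against 7.77, 7.52 and 8.26 in the controls (0.66, limma adjusted p = 0.448). Knockout replicate 2 lay just above the highest control. Vsnl1, a calcium sensor that promotes surface delivery of receptors with Chrna4 and Chrnb2, read 11.77 and 12.23 in the knockout arrays, against 11.30 to 11.57 in the controls (0.57, limma adjusted p = 0.358). Ywhah, an adaptor that binds Chrna4 during assembly, was named for the highest mean of this group and gave -0.0025. The chaperones Tmem35a and Ric3, which many nicotinic receptors need in order to fold, gave 0.13 and 0.22, neither with a call. The other toxin-like genes went both ways, with 0.57 at Ly6g6e, 0.31 at Ly6e, -0.021 at Ly6h, -0.13 at Psca, -0.20 at Lypd6 and -0.46 at Lypd6b, and none had a call. The other Lypd6 probe sets gave 0.19 and 0.083. Ly6g6e, below the median level, read 5.27 and 4.11 in the knockout arrays, against 4.09 to 4.16 in the controls. Lypd6b read 9.59 and 8.64 in the knockout arrays, against 9.51 to 9.66 in the controls. At Ly6e both knockout arrays, at 11.07 and 11.35, lay above the controls, at 10.76 to 10.99.

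Genes that supply or break down acetylcholine gave no call, with 0 of 6 at an adjusted or an unadjusted p under 0.05 in limma, where 11.8% of all genes had an unadjusted p that low, and a median log2 fold change of -0.064. Chat, which makes acetylcholine, and Slc18a3 and Slc5a7, which load it into vesicles and take up choline, read between 3.38 and 4.00 in all 5 arrays, below the median level. Ache, the enzyme that breaks acetylcholine down, read 9.97 and 10.07 in the knockout arrays, against 10.24, 9.93 and 10.31 in the controls (-0.13, limma adjusted p = 0.778). Slc44a1, a choline transporter of most cells, was named for the highest mean of this group and gave -0.0067. The 6 measured muscle-type and other subunits, Chrna1, Chrna9, Chrnb1, Chrnd, Chrne and Chrng, all read below the median level and had 0 members at an unadjusted p under 0.05 in limma. Against the share of 11.8%, a count of 0 in lists this short says nothing particular to them. Chrng, the subunit of fetal muscle receptors, was named on the same ground and gave -0.064. The 3 measured muscarinic receptors and the serotonin-gated relatives Htr3a and Htr3b also read below the median level. Chrm1 gave 0.10 and Htr3a gave 0.20. Chrm3, chosen after its values were seen, was the 1 gene of the acetylcholine, muscle-type, muscarinic and serotonin-gated lists with an unadjusted p under 0.05. It read 3.76 and 3.49 in the knockout arrays, against 4.26, 5.28 and 4.96 in the controls (-1.21, limma adjusted p = 0.281).

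**Figure D4:**
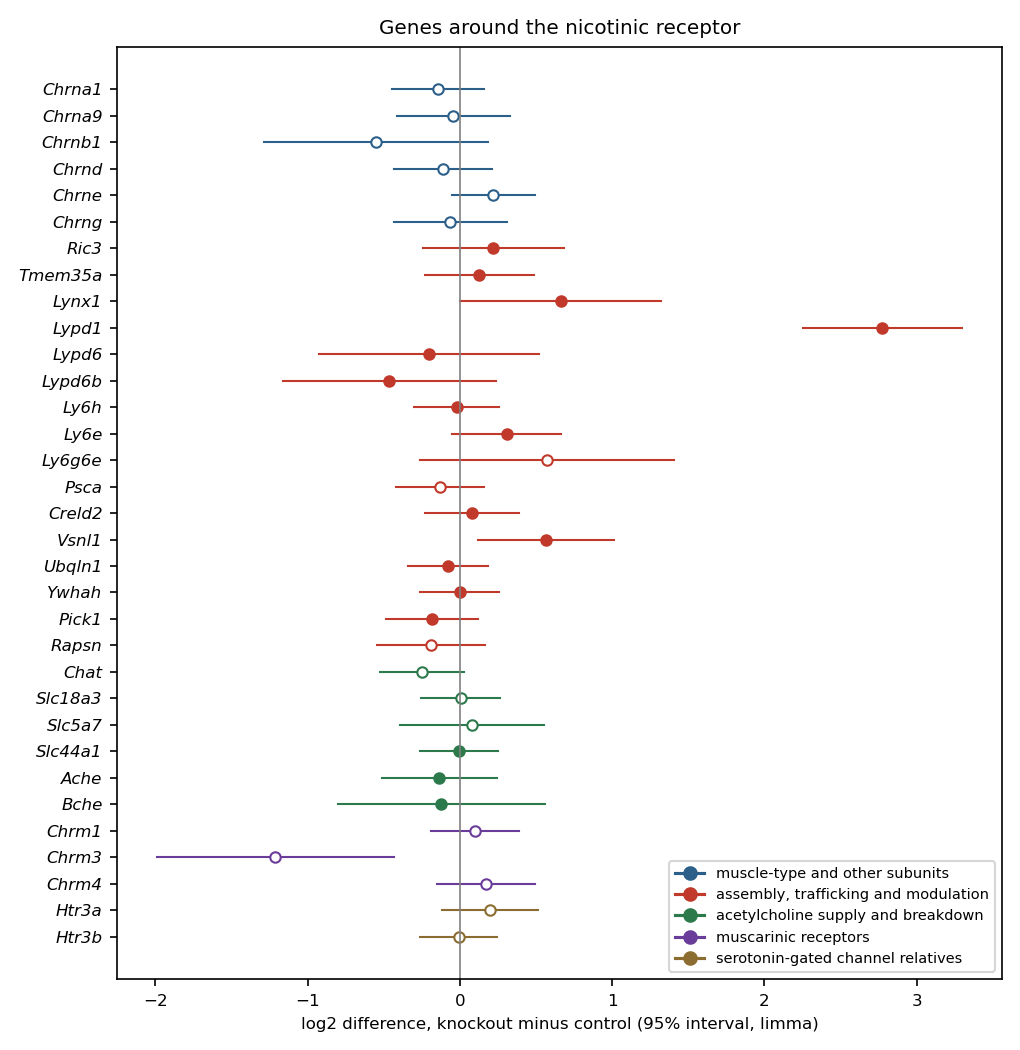
Log2 difference, knockout minus control, with its 95% interval from limma at the brightest probe set of 33 genes around the nicotinic receptor, coloured by group. Filled points read at or above the median level over the 5 arrays. Lypd1 stands apart at 2.77, and the next highest among filled points is Lynx1 at 0.66.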

How the data were processed

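RNA of microdissected dLGN was amplified, labelled with biotin and hybridised to 1-colour Affymetrix arrays, per the labels' protocols. The authors made the deposited log2 values with RMA, which corrects background, normalises quantiles between arrays and summarises probes, per the submitters' processing notes. Its version is not given in the sources used here, and the log2 scale was read from the values. RMA compresses differences among dim probe sets.

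Of 45101 probe sets, 64 controls were left out. Genes were named from the platform annotation, and the 19 nicotinic probe sets all matched RefSeq symbols. Groups came from the sample titles. Knockout and control were compared in R 4.3.3 by a two-sided limma 3.58.1 test (lmFit, then eBayes) that held genotype alone, and p-values of all 45037 probe sets were adjusted together by Benjamini-Hochberg. Every adjusted p comes from this fit, which was tested on simulated data, except where an alternative is named beside it. The p-values measure the spread between pools, and the number of arrays limits their precision. A gene in a list was read at its brightest probe set. Named genes were all 9 subunits and, from each pathway list, members past the threshold, bright members at an unadjusted p under 0.05 and the member with the highest mean. Other genes named in the text fall outside this rule, and their choice followed a look at the values. The 7 lists of cell markers were read as mean levels. The members and lists were chosen with earlier results of these data known. Alternatives tried were a block for the replicate number, further normalisation, centring, a filter on dim probe sets, other variance priors, array weights, a looser threshold, gene means and each array left out.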

Additional observations from a re-analysis of the deposited data

How the results depend on the processing

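No nicotinic probe set passed an adjusted p of 0.05 in limma under any alternative run, the looser threshold of 0.1 included. The lowest adjusted p of a nicotinic probe set was 0.106, without knockout replicate 2. Over all 45037 probe sets the 33 calls became 100 with an intensity trend, 19 with array weights and 158 at an adjusted p of 0.1. They became 0 with any 1 control array left out. Without probe sets below the median level 98 of 22519 were called, and with gene means 99 of 18193 genes. Nicotinic probe sets at an unadjusted p under 0.05 numbered 0 to 2 with 1 array left out, where 8.2% to 18.6% of all probe sets did so, and those with groups that do not overlap 3 to 10, where 37.3% to 65.1% of all probe sets did. The highest shares of all probe sets were those without knockout replicate 2. With the replicate number as a block, on replicates 1 and 2 alone, 0 probe sets were called, 1 nicotinic probe set, the brightest of Chrna4, had an unadjusted p under 0.05 (log2 fold change -0.73, limma adjusted p = 0.373), where 11.0% of all probe sets did, and 7 had groups that do not overlap, where 37.3% did. The labels do not say whether samples of the same number share anything besides it. Their deviations from the group means correlated at 0.148 for number 1 and 0.212 for number 2 over all probe sets. Across numbers, knockout replicate 1 gave -0.212 with control replicate 2 and 0.056 with control replicate 3. Knockout replicate 2 gave -0.148 with control replicate 1 and -0.056 with control replicate 3. The 2 knockout arrays deviate from their mean in mirror image, so the values of knockout replicate 2 only mirror those of knockout replicate 1. They are not separate checks.

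Of 112 fold changes of single subunits under the alternatives, 102 kept their direction and side of the threshold and 10 reversed. The intensity trend, the robust variance prior and the filter on dim probe sets leave a fold change as it is. Part of the 102 therefore could not have reversed, and the count is no measure of stability. With 1 array left out, Chrna4 ranged from -1.17 (without knockout replicate 2) to 0.065 (without knockout replicate 1), Chrna5 from -0.34 (without knockout replicate 1) to 0.90 (without knockout replicate 2) and Chrna7 from -0.99 (without knockout replicate 1) to 0.45 (without knockout replicate 2). Chrna6 ranged from -0.051 (without control replicate 2) to 0.079, and was -0.041 without knockout replicate 2. Chrnb3 ranged from -0.082 (without control replicate 3) to 0.14, and was -0.011 without knockout replicate 2. Chrnb4 ranged from -0.17 to 0.078 (without control replicate 3). With gene means Chrna3 was -0.053 and Chrna4 -0.28. The replicate block gave -0.082 for Chrnb3 and 0.078 for Chrnb4, the same as without control replicate 3. Both settings use the same arrays, so their fold changes are not separate checks. The cause of the reversals was not tested.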
